A study of Mus musculus with 2 samples.

Results

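The 34 genes described here serve glucose use and the response to low oxygen, and they were taken as a named list out of the 31053 genes in the files. They were split into 20 glycolytic genes, which cover glucose transporters, the enzymes from hexokinase to pyruvate kinase, the regulators of phosphofructokinase, and the handling of pyruvate and lactate, and 14 hypoxia genes that are known targets of the hypoxia response outside glycolysis. Every gene was followed in melanoma, fibroblast, endothelial and myeloid cells, gated on marker genes that include none of the 34.

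The cells came from small subcutaneous tumours of B16F10, a melanoma line of C57BL/6 mice, in a study of the host transcription factor ATF4. Each host genotype, Atf4 WT/WT (called WT) or Atf4 Δ/Δ (called KO), gave 1 library from 2 pooled tumours, and hosts were 11 weeks old. All hosts carried the tamoxifen-inducible Rosa26::CreERT2 and all were given tamoxifen by oral gavage. The Cre is expressed throughout the body and Atf4 was floxed only in the hosts of the KO tumours, while the injected melanoma cells kept their own Atf4 in both.

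Cells adapt to low oxygen mainly through the HIF transcription factors. When oxygen is present, prolyl hydroxylases such as Egln1 and Egln3 mark the HIF alpha subunits for destruction. When it is lacking, HIF accumulates and raises glucose uptake, most steps of glycolysis and lactate export, and it turns pyruvate away from mitochondria through Pdk1. HIF also induces its own hydroxylases, mitophagy receptors such as Bnip3, and genes for pH control, lipid storage and vessel growth. Tumour cells often use glycolysis even with oxygen at hand, so the enzymes and the other HIF targets need not move together.

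The WT library held 38417113 UMIs (unique molecular identifiers, each standing for 1 captured transcript) in 6304 barcodes, and the KO library held 38290024 UMIs in 5474 barcodes, with 10 barcodes in common. Filters on genes and mitochondrial UMIs left 3861 cells in WT and 3557 in KO. The gates held 1780 WT and 1882 KO melanoma cells, 191 and 225 fibroblasts, 70 and 27 endothelial cells, and 1380 and 1005 myeloid cells, with median depths between 1772 and 11363 UMIs. Levels are given as CPM, the UMIs of a gene summed over the gated cells for every 1000000 UMIs of those cells. The gates were set on marker genes, so high levels of a gate's own markers follow from the gating. They do not test the name. Fibroblasts held fibroblast markers at 47151 CPM in WT and 35704 in KO. Atf4 was at 255 CPM in WT and 41.5 in KO fibroblasts, at 184 and 39.3 in myeloid cells, and at 227 and 204 in melanoma cells. The labels give hosts of both sexes for each library, yet no WT cell of the host gates had a Y-linked UMI without an Xist UMI, against 49 KO fibroblasts, 8 KO endothelial cells and 141 KO myeloid cells. Host sex and genotype are therefore mixed in every pooled KO/WT ratio of host cells, and the main ones are also given below for KO cells that carried Xist and no Y-linked UMI.

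With 1 library per genotype there is no replicate and no test between genotypes. The intervals in brackets are exact at 95% and cover counting error only, not the difference between mice. A gene counts as higher or lower when it is past 1.5-fold and has at least 20 UMIs over both libraries, and each such count stands beside the share of all genes past the same fold.

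The promoters of 5 members are shown first because they carry, or lack, the letters that HIF is known to bind. The core of the hypoxia response element was searched as ACGTG and GCGTG on both strands in the 250 bases before each RefSeq gene start (GRCm38.p6), and 30 of the 34 genes were matched. Ero1l is listed there as Ero1a, and Slc2a3, Bnip3l, Ndufa4l2 and Ndrg1 were not matched. A core stood in at least 1 window of 28 of the 30 genes (93.3%), against 41.5% of 27025 genes. ACGTG itself was in windows of 60.0% of the members and of 18.5% of all genes. The windows of the members were also richer in G and C, with a median of 62.8% against 52.4% over all windows, and whether base composition alone gives this share of matches was not tested. Capitals mark a core on either strand, and 2 cores that overlap on opposite strands form 1 run. The windows of Bnip3, a mitophagy receptor, and Fam162a, a mitochondrial protein induced by HIF, held 5 and 6 cores, that of the glucose transporter Slc2a1 held 2, the first of 2 windows of lactate dehydrogenase Ldha held 5, and that of the glycolytic enzyme Tpi1 held 0.
Bnip3: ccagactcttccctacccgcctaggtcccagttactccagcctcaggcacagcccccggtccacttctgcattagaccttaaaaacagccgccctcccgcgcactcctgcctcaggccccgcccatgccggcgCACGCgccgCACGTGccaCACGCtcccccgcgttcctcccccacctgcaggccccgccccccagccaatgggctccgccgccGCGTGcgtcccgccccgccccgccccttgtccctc
Fam162a: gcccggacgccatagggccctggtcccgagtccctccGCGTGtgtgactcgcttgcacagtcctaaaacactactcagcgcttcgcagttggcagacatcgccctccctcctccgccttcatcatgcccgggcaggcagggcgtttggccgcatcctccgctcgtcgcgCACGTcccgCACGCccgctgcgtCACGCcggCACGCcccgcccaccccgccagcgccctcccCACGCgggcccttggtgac
Slc2a1: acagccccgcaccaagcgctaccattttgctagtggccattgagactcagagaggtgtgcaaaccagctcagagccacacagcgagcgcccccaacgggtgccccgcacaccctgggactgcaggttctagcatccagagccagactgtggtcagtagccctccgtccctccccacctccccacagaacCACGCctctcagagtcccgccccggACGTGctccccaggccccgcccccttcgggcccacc
Ldha: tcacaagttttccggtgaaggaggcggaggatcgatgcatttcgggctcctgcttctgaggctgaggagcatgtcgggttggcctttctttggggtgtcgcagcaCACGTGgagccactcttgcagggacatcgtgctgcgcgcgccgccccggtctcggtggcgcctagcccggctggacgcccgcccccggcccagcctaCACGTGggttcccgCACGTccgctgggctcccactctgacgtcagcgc
Tpi1: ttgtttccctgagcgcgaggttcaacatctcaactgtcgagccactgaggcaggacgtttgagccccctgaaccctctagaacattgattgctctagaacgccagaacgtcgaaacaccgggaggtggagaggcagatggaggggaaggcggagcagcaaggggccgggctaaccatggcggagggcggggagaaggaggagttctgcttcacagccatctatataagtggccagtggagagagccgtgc
These windows are chr7:138909507-138909756 (minus strand) for Bnip3, chr16:36071562-36071811 (minus) for Fam162a, chr4:119108495-119108744 (plus) for Slc2a1, chr7:46845554-46845803 (plus) for Ldha and chr6:124814159-124814408 (minus) for Tpi1, each ending at the base before the annotated start. Among the genes searched, Gpi1 and Tpi1 had no core in any window. A match is a description of the letters and not evidence of binding.

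The first question was where each gene was used. Glycolytic enzymes were mostly highest in the melanoma cells, while the hypoxia genes were spread over the cell types. Together the 20 glycolytic genes stood at 18046 CPM (17987 to 18105) in WT melanoma cells and 18653 (18593 to 18713) in KO melanoma cells. WT levels were 8174 (8072 to 8278) in myeloid cells, 6303 (6123 to 6487) in fibroblasts and 5655 (5398 to 5921) in endothelial cells. The 14 hypoxia genes stood at 1976 CPM (1957 to 1996) in WT melanoma cells, 1714 (1621 to 1811) in fibroblasts, 1265 (1225 to 1306) in myeloid cells and 955 (851 to 1068) in endothelial cells. In the KO library the order of the hypoxia sums changed, with 3767 CPM (3641 to 3897) in fibroblasts above 2288 (2267 to 2309) in melanoma cells.

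**Figure D1:**
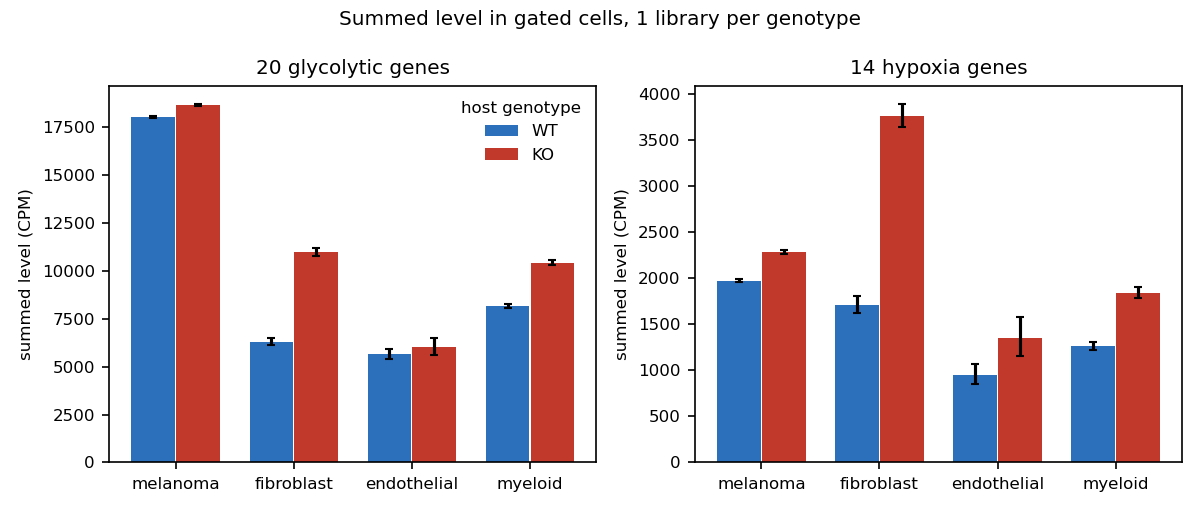
Summed levels of the 20 glycolytic genes (left) and the 14 hypoxia genes (right) in CPM, by gated cell type, with WT in blue, KO in red and bars for the 95% counting interval of 1 library each. Melanoma cells stand highest for glycolytic genes in both libraries, and KO fibroblasts stand highest for hypoxia genes at 3767.

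Of the 20 glycolytic genes, 14 were highest in melanoma cells in WT and 12 in both libraries, against 37.7% and 29% of the 13441 genes with at least 20 UMIs over the gates. For Hk1, the hexokinase of the outer mitochondrial membrane, the melanoma interval overlapped that of the next cell type in both libraries. It did not overlap in either library for the other genes of this group, which were Gpi1, Pfkl, Aldoa, Aldoc, Tpi1, Gapdh, Pgk1, Pgam1, Eno1, Pkm and Ldha. Tpi1, which interconverts the 3-carbon sugars, was at 1768 CPM in WT melanoma cells, 3.20 times its level in the next highest, the myeloid cells. In the KO the same ratio was 2.55. Aldoc, a second aldolase, was at 51.0 in WT and 39.9 in KO melanoma cells, against 11.8 and 9.00 in myeloid cells and 5 or fewer UMIs in each library of fibroblasts. Read against all genes, 9 glycolytic genes were past 1.5-fold lower in fibroblasts than in melanoma cells in both libraries, where 24.3% of 12784 genes were, and 10 were lower in myeloid cells, where 35.2% of 12955 genes were. In endothelial cells 14 were lower, against 9.89% of 12461 genes.

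The transporters and the regulators of phosphofructokinase were the exceptions. Slc2a1 (ENSMUSG00000028645), the main basal glucose transporter, was at 88.0 CPM in WT myeloid cells, 84.4 in fibroblasts, 56.2 in melanoma cells and 28.0 in endothelial cells. The myeloid and fibroblast intervals overlapped. In the KO it was at 237 (206 to 271) in fibroblasts, 2.12 times the myeloid level of 111 (97.6 to 127). Pfkfb3 and Pfkfb4, which set the level of the sugar phosphate that activates phosphofructokinase, were highest in myeloid cells in both libraries, Pfkfb3 at 25.9 and 42.2 and Pfkfb4 at 10.8 and 9.95. Their intervals overlapped the next cell type. Hk2, the hexokinase most tied to HIF, was highest in fibroblasts, at 136 in WT and 158 in KO, with melanoma cells at 112 and 122, and the intervals were apart only in the KO. Slc2a3, a high-affinity glucose transporter, was at 19.1 and 26.9 in fibroblasts, from 14 and 24 UMIs. Slc16a3, the lactate exporter MCT4, was highest in myeloid cells in WT, at 105, and in fibroblasts in KO, at 159, and both intervals overlapped the next cell type.

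Several hypoxia genes were highest in the same cell type in both libraries. Ndufa4l2 (ENSMUSG00000040280), a mitochondrial protein that lowers respiration under hypoxia, was at 259 CPM in WT fibroblasts and 569 in KO fibroblasts, 3.96 and 2.61 times its level in endothelial cells, the next highest. Melanoma and myeloid cells held 16 and 3 Ndufa4l2 UMIs in WT, and 50 and 8 in KO. Hilpda, which blocks lipid breakdown in lipid droplets, was highest in myeloid cells, at 268 and 367, and Mxi1, an antagonist of MYC, at 60.3 and 73.0, with the Mxi1 interval overlapping that of fibroblasts in the KO. Car9, a carbonic anhydrase that regulates pH, was at 57.9 in WT and 102 in KO melanoma cells, 5.93 and 4.48 times the myeloid level.

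Egln3 and Ndrg1 were also highest in fibroblasts and Higd1a in melanoma cells in both libraries. The intervals of Egln3 overlapped the next cell type in both, and those of Ndrg1 in WT. The remaining hypoxia genes changed places between the libraries. The mitophagy receptors Bnip3 and Bnip3l, the oxygen sensor Egln1, Fam162a and Ero1l, an oxidase that forms disulphide bonds in the endoplasmic reticulum, were highest in melanoma cells in WT and in fibroblasts in KO. Fam162a was at 458 CPM in melanoma cells and 325 in fibroblasts in WT, and at 424 and 835 in KO. For this gene the intervals of both cell types were apart in each library. For Bnip3l, Egln1 and Ero1l they overlapped in WT, and for Bnip3 and Bnip3l the highest level overlapped the next in KO. In all, 7 of 14 hypoxia genes were highest in melanoma cells in WT and 2 in KO (Car9 and Higd1a, a mitochondrial inner membrane protein), where 37.7% of all genes were in WT and 38.2% in KO. In fibroblasts 4 were highest in WT and 8 in KO, against 21.5% and 19.6% of all genes. Past 1.5-fold above melanoma cells in both libraries were Egln3, Ndufa4l2, Adm and Ndrg1 in fibroblasts (4 of 14, against 19.4% of all genes), Ndufa4l2, Ankrd37, Adm and Ndrg1 in endothelial cells (4, against 16%), and Egln3, Ankrd37, Ndrg1, Mxi1 and Hilpda in myeloid cells (5, against 19.9%).

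The second question was how the levels differed with the host genotype. The largest differences were in fibroblasts, where both groups of genes were higher in KO. Glycolytic genes went from 6303 to 10998 CPM, a log2 KO/WT ratio of 0.80 (0.75 to 0.85), and hypoxia genes from 1714 to 3767, a log2 ratio of 1.14 (1.04 to 1.23). Of 18 glycolytic genes with enough UMIs, 13 were past 1.5-fold higher in KO and 0 lower. Of 13 hypoxia genes, 10 were higher and 1 lower. Over all 7224 genes of these fibroblasts, 13% were higher and 15.8% lower. When only cells that held Xist but no Y-linked UMI were compared, 17 glycolytic and 12 hypoxia genes had 20 UMIs. Of these, 6 and 7 were higher, against 13.2% of all genes. Of the 13 glycolytic and 10 hypoxia genes counted above, 5 and 8 were still past 1.5-fold. Among these, Pfkfb3 and Egln3 had under 20 UMIs in that set. The 8 glycolytic genes that then fell under 1.5-fold were Gpi1, Tpi1, Gapdh, Pgk1, Pgam1, Pkm, Ldha and Slc16a3, and the 2 hypoxia genes were Ndufa4l2 and Higd1a. The median log2 ratio was 0.85 for glycolytic genes, 1.14 for hypoxia genes and -0.04 for all genes. Among genes with at least 200 UMIs over both libraries, 9 of 12 glycolytic and 8 of 9 hypoxia genes were higher. Of all 1238 such genes, 8.16% were higher and 9.05% lower. Counting error is smaller there, but a gene high in KO passes this limit more easily. Slc2a1 (62 and 211 UMIs), Bnip3 (56 and 199) and Egln1 (67 and 196) had most of theirs in KO. These counts are therefore not separate support. Pfkfb4, Aldoc and Car9 had under 20 UMIs and were not counted.

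Glucose entry and the first steps differed among themselves. Slc2a1 had 62 UMIs in WT and 211 in KO fibroblasts, at 84.4 and 237 CPM (log2 ratio 1.49, 1.07 to 1.92). The low-abundance hexokinase Hk1 was at 29.9 and 62.8, a log2 ratio of 1.07 (0.33 to 1.85), while Hk2 was at 136 and 158 with an interval that held 0 (-0.16 to 0.60). Gpi1, which makes fructose 6-phosphate, was at 309 and 540, and Pfkl, a phosphofructokinase subunit, at 51.7 and 96.4. Another subunit, Pfkp, was at 79.0 and 88.5, within counting error. Pfkfb3 rested on 6 and 22 UMIs, with a log2 ratio of 1.59 (0.25 to 3.19). Fibroblast Slc2a3, at 0.50 (-0.51 to 1.56), could not be told from equal levels.

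From aldolase onwards the enzymes lay close together. Tpi1 was at 339 CPM in WT and 702 in KO, Gapdh at 1431 and 2677, Pgk1 at 584 and 1061, Pgam1 at 540 and 879, and Pkm, pyruvate kinase, at 788 and 1465. Their log2 ratios ran from 0.70 to 1.05. Aldoa, the main aldolase, and Eno1, enolase, differed less, with log2 ratios of 0.51 (0.35 to 0.68) and 0.41 (0.18 to 0.65), both under 1.5-fold. At the end of the pathway Ldha was at 807 and 1395, the lactate exporter Slc16a3 at 88.5 and 159, and Pdk1, the kinase that shuts pyruvate dehydrogenase, at 21.8 and 51.6, the last from 16 and 46 UMIs. Summed by role, the 5 lower-glycolysis enzymes had a log2 ratio of 0.83 (0.76 to 0.89), the 8 upper-glycolysis genes 0.69 (0.59 to 0.80) and the 3 pyruvate and lactate genes 0.81 (0.67 to 0.94).

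The oxygen sensors were among the members that differed most. Egln1 (ENSMUSG00000031987), the main prolyl hydroxylase, was at 91.2 CPM in WT and 220 in KO fibroblasts, a log2 ratio of 1.27 (0.86 to 1.69). Egln3 was at 13.6 and 46.0, from 10 and 41 UMIs, a log2 ratio of 1.76 (0.73 to 2.92). Both went the same way as the genes whose activator they mark for destruction. Hif1a itself, the alpha subunit that they act on, was at 144 and 281, a log2 ratio of 0.96 (0.63 to 1.30).

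Mitochondrial members were higher as well. Bnip3 was at 76.2 and 223 CPM (log2 ratio 1.55, 1.11 to 2.0), while its relative Bnip3l was at 169 and 228, under 1.5-fold. Fam162a had 239 and 745 UMIs and a log2 ratio of 1.36 (1.15 to 1.58). Ndufa4l2 was at 259 and 569 (1.14, 0.90 to 1.39) and Higd1a at 299 and 553 (0.88, 0.65 to 1.12).

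Of the remaining hypoxia genes, Ndrg1, a stress-responsive gene named for its repression by N-MYC, was at 106 and 343 CPM (log2 ratio 1.69, 1.33 to 2.07). Ero1l was at 178 and 430 (1.27, 0.98 to 1.57), Hilpda at 81.7 and 173 (1.08, 0.64 to 1.53) and Adm, the vasodilator adrenomedullin, at 53.1 and 87.4 (0.72, 0.15 to 1.31). Mxi1 was at 29.9 and 34.7 and could not be told from equal levels. Ankrd37, an ankyrin repeat protein induced by HIF, was the only member counted as lower, from 20 UMIs in WT and 15 in KO, and its interval held 0 (-1.77 to 0.34).

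**Figure D2:**
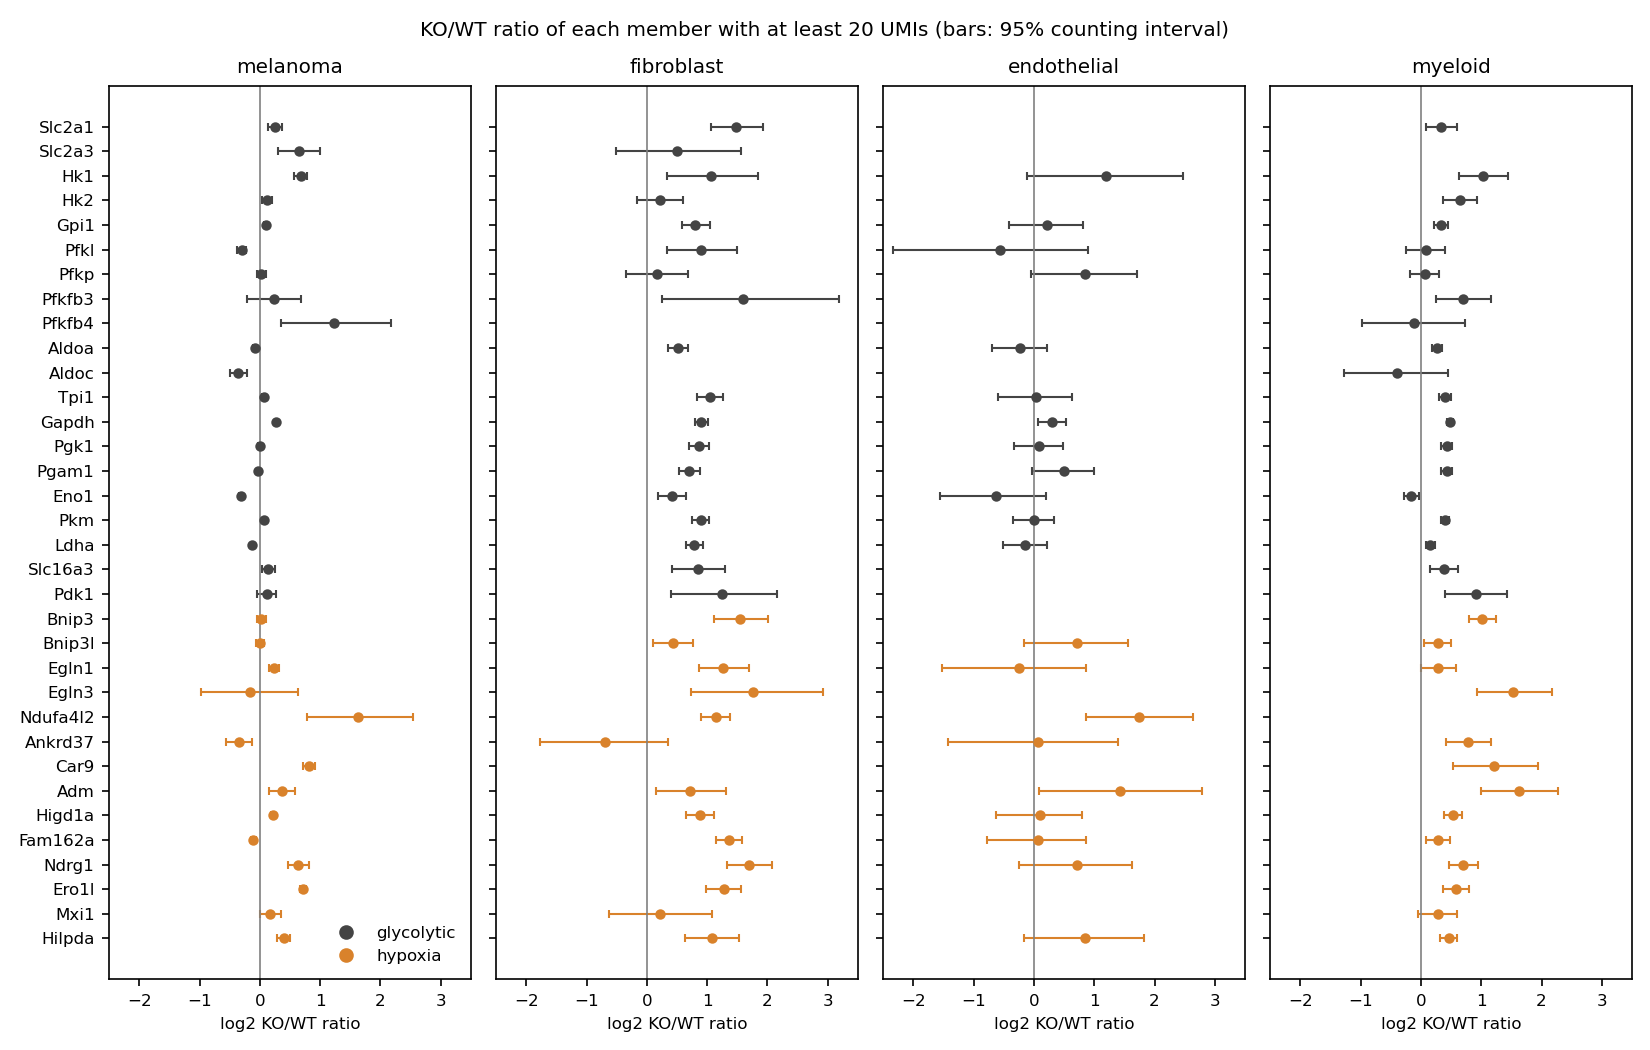
The log2 KO/WT ratio (x axis) of each of the 34 genes (y axis) in the 4 gated cell types, drawn where a gene had at least 20 UMIs over both libraries, with bars for the 95% counting interval. Nearly all points lie right of 0 in fibroblasts, hypoxia genes (orange) and glycolytic genes (grey) alike, whereas melanoma points lie around 0 with a few to the right.

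Markers that help define the fibroblast gate also differed, in both directions. Col1a1 was at 12135 CPM in WT and 8374 in KO, Lum at 662 and 380, and Pdgfrb at 339 and 110, a log2 ratio of -1.63 (-1.98 to -1.28). Col1a2 and Col3a1 were lower too, while Dcn was higher, at 2403 and 2948, and Mmp2 at 312 and 389. Pdgfra and Fbn1 were near level. At least 2 mural markers were seen in 2.62% of WT and 0.889% of KO fibroblasts. With the fibroblast gate set without Col1a1, Col1a2 and Pdgfrb, the log2 ratios of both sums moved by less than their counting intervals. Melanoma markers, which can reach host cells as free RNA, were at 589 CPM in WT and 544 in KO fibroblasts, and myeloid markers at 135 and 94.2. The source of these UMIs was not tested. With all melanoma marker UMIs taken as free RNA, and the matching share of RNA subtracted, the glycolytic log2 ratio was 0.87. At least 2 cycling markers were seen in 19.9% of WT and 13.8% of KO fibroblasts, and the part of cycling in the result was not tested.

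The fibroblast difference was not the same in KO cells with Xist and in KO cells with Y-linked UMIs, each set against the 154 WT fibroblasts with Xist and no Y-linked UMI. For glycolytic genes the 58 KO cells with Xist and no Y-linked UMI had a log2 ratio of 0.41 (0.33 to 0.49), and the 49 with Y-linked UMIs and no Xist had 0.86 (0.79 to 0.92). For hypoxia genes the values were 0.87 (0.73 to 1.01) and 0.97 (0.85 to 1.10). The remaining cells of the 225 KO fibroblasts were in neither set. Over all 225 the hypoxia genes stood at 3767 CPM, above the 3289 and 3523 of the 2 sets. In the set with Y-linked UMIs, 13 of 16 glycolytic and 7 of 13 hypoxia genes with 20 UMIs were higher, against 14.8% of all genes. In each list 1 was lower, against 19.8% of all genes. All 13 glycolytic genes counted as higher above were past 1.5-fold there, Pfkfb3 from under 20 UMIs. Of the 10 hypoxia genes 7 were, with Adm, Ndrg1 and Hilpda under it. The median depth was 3087 UMIs in the first set and 4836 in the second. The labels do not tie cells to a tumour, so sex and tumour cannot be told apart here.

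Named genes split between these sets in both directions. Ndrg1 was at 538 CPM in KO cells with Xist (log2 ratio 2.31, 1.85 to 2.77) and at 149 in those with Y-linked UMIs (0.45, -0.16 to 1.04). Hilpda was at 210 and 91.5, Ero1l at 528 and 305, and Hk2 at 251 and 95.3, all higher in the Xist set. Slc2a1 was at 277 and 153, with log2 ratios of 1.58 and 0.72.

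The other direction held for Ndufa4l2, which was at 241 in KO cells with Xist (log2 ratio -0.18, -0.67 to 0.30) and at 641 in those with Y-linked UMIs (1.24, 0.92 to 1.55). Its higher level in pooled KO fibroblasts was thus not seen in the Xist set. Gapdh was at 1906 and 2928, Higd1a at 374 and 641, and Eno1 at 287 and 541, also higher in the Y set. Eno1 in the Xist set was below its WT level of 338, with an interval that held 0 (log2 ratio -0.24, -0.69 to 0.20), so its higher level in pooled KO fibroblasts was not seen there either. Bnip3, Fam162a and Egln1 were above WT in both sets, with log2 ratios of 1.35 and 1.68, 0.84 and 1.25, and 0.85 and 1.55. The difference between the sets was not tested.

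**Figure D3:**
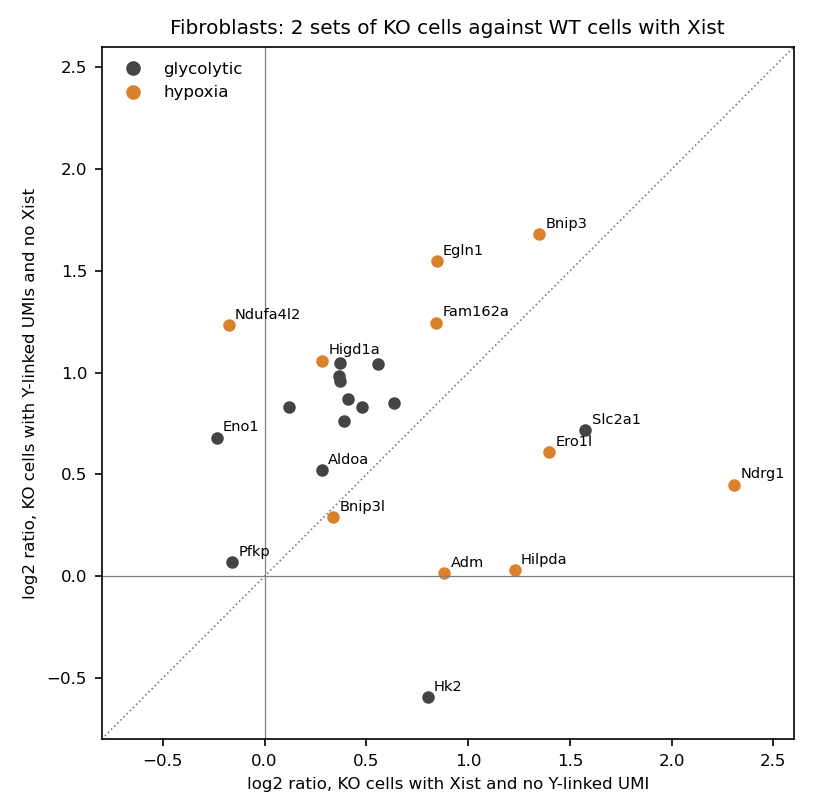
The log2 ratio of 24 genes with at least 100 UMIs in fibroblasts, for KO cells with Xist (x axis) and for KO cells with Y-linked UMIs (y axis), each against the WT cells with Xist, with a dotted line of equal ratios; the crowded glycolytic points carry no names. In all, 21 genes lie above 0 on the x axis and 23 on the y axis, with Ndrg1, Hilpda, Ero1l, Slc2a1 and Hk2 below the dotted line and Ndufa4l2 far above it.

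In myeloid cells the differences were smaller and clearest among the less abundant hypoxia genes. Glycolytic genes went from 8174 to 10426 CPM (log2 ratio 0.35, 0.32 to 0.38), and hypoxia genes from 1265 to 1846, a log2 ratio of 0.55 (0.48 to 0.61). Of 19 glycolytic genes with enough UMIs, 4 were higher by 1.5-fold (Hk1, Hk2, Pfkfb3 and Pdk1), and of 13 hypoxia genes 6 were, with 0 lower in either list. Over all 9382 genes, 8.64% were higher and 9.19% lower. Slc2a3 and Ndufa4l2 had too few UMIs. Markers of the myeloid gate also differed, in both directions. Log2 ratios were -0.37 (-0.40 to -0.35) for Lyz2, -0.22 for Aif1, 0.22 for C1qb and 0.48 (0.44 to 0.53) for C1qa. Cd68 was at 0.13 and Fcer1g at 0.10, and Csf1r and Tyrobp were near level. The part of myeloid makeup in the ratios was not tested.

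Egln3 was at 11.5 and 33.2 CPM in myeloid cells, from 34 and 70 UMIs, a log2 ratio of 1.53 (0.92 to 2.17). Adm was at 10.8 and 33.2 (1.62, 1.0 to 2.27), Car9 at 9.77 and 22.7 (1.22, 0.52 to 1.94) and Bnip3 at 92.3 and 187 (1.02, 0.79 to 1.24). Ankrd37 was at 38.4 and 66.3 (0.79, 0.42 to 1.16), and Ndrg1 was at 88.6 and 144. These genes stood well above the median log2 ratio of all genes, -0.01.

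Among the myeloid glycolytic genes, Hk1 was at 29.7 and 60.7 CPM (1.03, 0.63 to 1.44) and Pdk1 at 19.2 and 36.0 (0.91, 0.39 to 1.43). The abundant enzymes Gapdh, Pgk1, Pgam1, Tpi1 and Pkm had log2 ratios between 0.39 and 0.48, Ldha was at 0.16 (0.08 to 0.23), and Eno1 was slightly lower in KO (-0.16, -0.29 to -0.03), though not in the Xist set (0.03, -0.26 to 0.31). Of the 1005 KO myeloid cells, 103 had Xist and no Y-linked UMI. They gave log2 ratios of 0.42 for glycolytic and 0.56 for hypoxia genes. The 141 with Y-linked UMIs and no Xist gave 0.28 and 0.40, and the remaining cells were in neither set. In the Xist set 5 of 19 glycolytic and 6 of 13 hypoxia genes with 20 UMIs were higher, against 12.5% of all genes. Of the genes past 1.5-fold in all myeloid cells, 3 of 4 glycolytic and 3 of 6 hypoxia genes stayed past it there. Hk1, Bnip3, Egln3 and Ankrd37 fell under it. Melanoma markers were at 961 and 767 CPM in myeloid cells, and with free RNA subtracted the glycolytic ratio was 0.39.

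Endothelial cells were few, and most of their ratios were within counting error. The glycolytic sum was 5655 and 6044 CPM (log2 ratio 0.10, -0.03 to 0.22), and the hypoxia sum 955 and 1353, a log2 ratio of 0.50 (0.22 to 0.78). In the 54 WT and 10 KO endothelial cells that held Xist but no Y-linked UMI, the hypoxia log2 ratio was 0.38 (-0.15 to 0.89), an interval that held 0. Only 12 glycolytic and 9 hypoxia genes had 20 UMIs. Of these, Hk1 and Pfkp were higher by 1.5-fold and Eno1 lower, and 5 hypoxia genes were higher (Bnip3l, Ndufa4l2, Adm, Ndrg1 and Hilpda), where 16.1% of 3333 genes were higher and 16.4% lower. Ndufa4l2 had 21 UMIs in 70 WT cells and 26 in 27 KO cells, at 65.3 and 219 CPM (log2 ratio 1.74, 0.86 to 2.64). Adm was at 34.2 and 92.5 (1.43, 0.09 to 2.78). At least 2 markers of mural cells, which wrap small vessels, were seen in 11.4% of WT and 25.9% of KO endothelial cells, and their part in these values was not tested.

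In melanoma cells, which keep Atf4, the glycolytic sum hardly differed and a few hypoxia genes were higher in KO hosts. Glycolytic genes were at 18046 and 18653 CPM (log2 ratio 0.05, 0.04 to 0.05), and hypoxia genes at 1976 and 2288, a log2 ratio of 0.21 (0.19 to 0.23). Past 1.5-fold higher were 3 of 20 glycolytic genes (Slc2a3, Hk1 and Pfkfb4) and 4 of 14 hypoxia genes (Ndufa4l2, Car9, Ndrg1 and Ero1l), with 0 lower, against 8.69% of 12260 genes higher and 4.84% lower. Pfkfb4 and Ndufa4l2 are near the floor in these cells, with 16 UMIs each in WT and 38 and 50 in KO.

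Car9 (ENSMUSG00000028463) was at 57.9 CPM in WT and 102 in KO melanoma cells, a log2 ratio of 0.81 (0.71 to 0.92). Ero1l was at 218 and 358 (0.72, 0.66 to 0.77), Hk1 at 62.2 and 99.5 (0.68, 0.57 to 0.78) and Ndrg1 at 21.4 and 33.3 (0.64, 0.46 to 0.82). Bnip3 and Fam162a, well above WT in KO fibroblasts, were near level here, at 0.03 (-0.04 to 0.10) and -0.11 (-0.15 to -0.07) on the log2 scale.

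Some glycolytic genes were slightly lower in KO melanoma cells. Aldoc was at 51.0 and 39.9 (-0.35, -0.49 to -0.22), Eno1 at 1189 and 953 (-0.32, -0.35 to -0.29) and Pfkl at 178 and 144 (-0.30, -0.37 to -0.23), all under 1.5-fold. Ldha was at 2229 and 2034, while Gapdh was at 4502 in WT and 5422 in KO. Pigment markers differed at the same time, with Mitf at 534 and 348 and Dct at 5627 and 4711. At least 2 cycling markers were seen in 72.1% of WT and 60.3% of KO melanoma cells, and the part of cycling in the melanoma values was not tested.

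The pigment gate left out some melanoma cells with weak markers, and these were rich in the genes described here. Kept cells with at least 3 melanoma markers at 10 to 40 marker UMIs per 10000, and in no other gate, numbered 47 in WT (median 2511 UMIs) and 158 in KO (median 8131 UMIs). Their hypoxia genes were at 3545 (3267 to 3840) and 4798 (4680 to 4917) CPM, 1.79 and 2.10 times the level of the gated melanoma cells of the same library. Their glycolytic genes were at 23741 and 21861, which is 1.32 and 1.17 times. Fibroblast markers were at 118 and 63.7 CPM, and myeloid markers at 849 and 86.5.

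In these weakly marked cells Ndrg1 stood at 88.5 and 115 CPM, 4.13 and 3.44 times the gated melanoma level, and Bnip3 at 301 and 369, 1.78 and 2.14 times. Ero1l was at 277 in WT, 1.27 times, and at 1190 in KO, 3.32 times. Pkm and Tpi1 differed less, at 1.0 and 1.15 times in WT and 1.03 and 0.97 times in KO. With these cells added to the melanoma gate, a choice made after seeing the data, the log2 KO/WT ratio of hypoxia genes was 0.30 (0.28 to 0.31) and that of glycolytic genes 0.06 (0.05 to 0.07).

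The third question was how the genes varied between cells of 1 type. Each cell was thinned to 2000 UMIs so that depth did not set the values, which left out 31 WT and 38 KO fibroblasts, 122 and 124 melanoma cells, 18 and 7 endothelial cells, and 778 and 574 myeloid cells. In 160 WT fibroblasts the hypoxia genes held a median of 10 UMIs per 10000, with a 90th percentile of 45. In 187 KO fibroblasts the median was 20 and the 90th percentile 105. For these genes the upper end differed more than the middle, as it did in the upper quartile, at 15 and 60. For glycolytic genes the fibroblast medians were 40 and 80, the upper quartiles 70 and 170, and the 90th percentiles 155.5 and 217. Their 90th percentiles differed by a smaller fold than their medians.

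**Figure D4:**
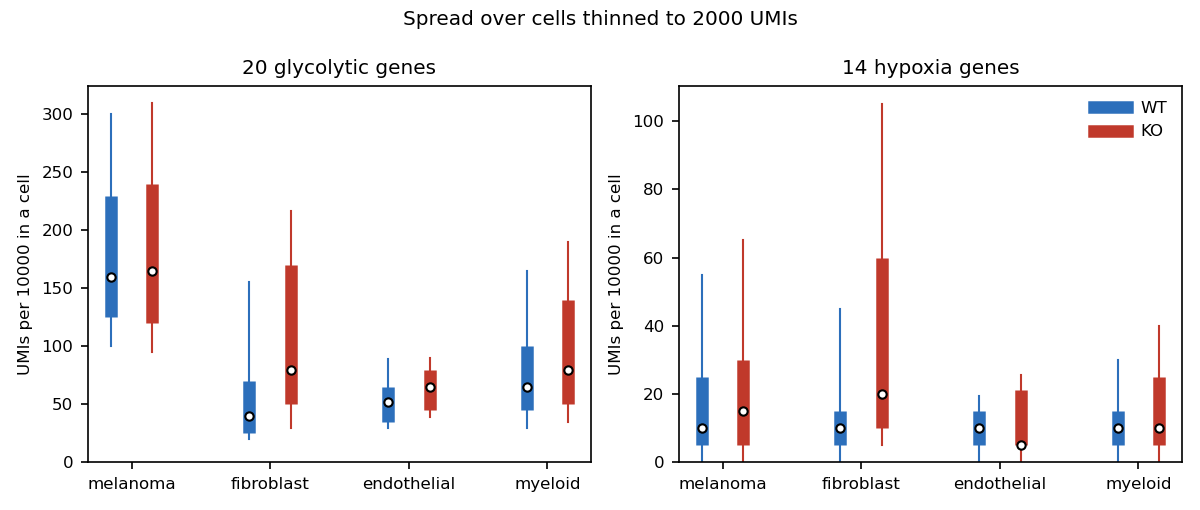
UMIs of the 20 glycolytic genes (left) and the 14 hypoxia genes (right) per 10000 UMIs in single cells thinned to 2000 UMIs, with the median (white point), the quartiles (thick bar) and the 10th and 90th percentiles (thin line) for WT (blue) and KO (red). KO fibroblasts reach 105 at the 90th percentile of hypoxia genes, above every other group.

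In melanoma cells the spread was wide in both libraries, with glycolytic genes at a 10th percentile of 100 and a 90th of 300 UMIs per 10000 in WT, and at 95 and 310 in KO. Hypoxia genes reached a 90th percentile of 55 in WT and 65 in KO melanoma cells, and of 30 and 40 in myeloid cells. Endothelial cells had the narrowest range, with 90th percentiles of 19.5 and 25.5.

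Shares of fibroblasts with a UMI moved in the same direction as the levels. Fam162a was seen in 29.4% (22.4 to 37.1) of thinned WT fibroblasts and 55.6% (48.2 to 62.9) of KO fibroblasts, with exact Clopper-Pearson intervals. Ndufa4l2 was seen in 40 of 160 WT and 77 of 187 KO fibroblasts. Egln1 was seen in 14.4% (9.34 to 20.8) and 33.2% (26.5 to 40.4), Ndrg1 in 14.4% (9.34 to 20.8) and 31.0% (24.5 to 38.2), and Bnip3 in 13.1% (8.31 to 19.4) and 28.3% (22.0 to 35.4). Dct, a melanoma gene that fibroblasts should lack, was seen in 34.4% (27.1 to 42.3) of WT and 29.4% (23.0 to 36.5) of KO fibroblasts, so a share for a gene abundant in melanoma cells can come in part from free RNA. Ndufa4l2 was seen in 0.18% of WT and 0.46% of KO melanoma cells, and in 0 of 602 WT myeloid cells, for which a limit of 3 counts allows up to 0.498% of cells with a UMI.

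In melanoma cells, fibroblasts and myeloid cells, the glycolytic genes followed the hypoxia genes from cell to cell. Endothelial cells were too few and were left out of this comparison. Each member was set against the hypoxia UMIs of the cell without that member, and the cells with the most such UMIs were compared with an equal number of those with the fewest. In WT melanoma cells, the 552 cells with the lowest and the 552 with the highest hypoxia level held 135 and 258 glycolytic UMIs per 10000. The KO values were 132 and 268, from 586 cells at each end. In fibroblasts they were 39.3 and 103 in WT (53 cells at each end) and 48.0 and 194 in KO (62 cells). In myeloid cells they were 57.8 and 122 in WT (200 cells) and 64.4 and 155 in KO (143 cells).

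Spearman's rho between the glycolytic and hypoxia levels over all cells was 0.65 in 1658 WT and 0.67 in 1758 KO melanoma cells. It was 0.45 in 160 WT and 0.84 in 187 KO fibroblasts, and 0.49 in 602 WT and 0.64 in 431 KO myeloid cells. Pearson's r was 0.72 and 0.72, 0.75 and 0.81, and 0.64 and 0.71 in the same order. The fibroblast libraries thus differed less by Pearson's r. The cells share a library and were thinned to the same depth, and they are not replicates of a genotype. Cycling went the other way, since at least 2 cycling markers were seen in 41.7% of the low and 31.2% of the high WT melanoma cells, and in 36.2% and 21.2% of the KO cells. Melanoma markers were nearly level, at 136 and 132 UMIs per 10000 in WT and at 110 and 101 in KO. The part of cycling in the relation was not tested.

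**Figure D5:**
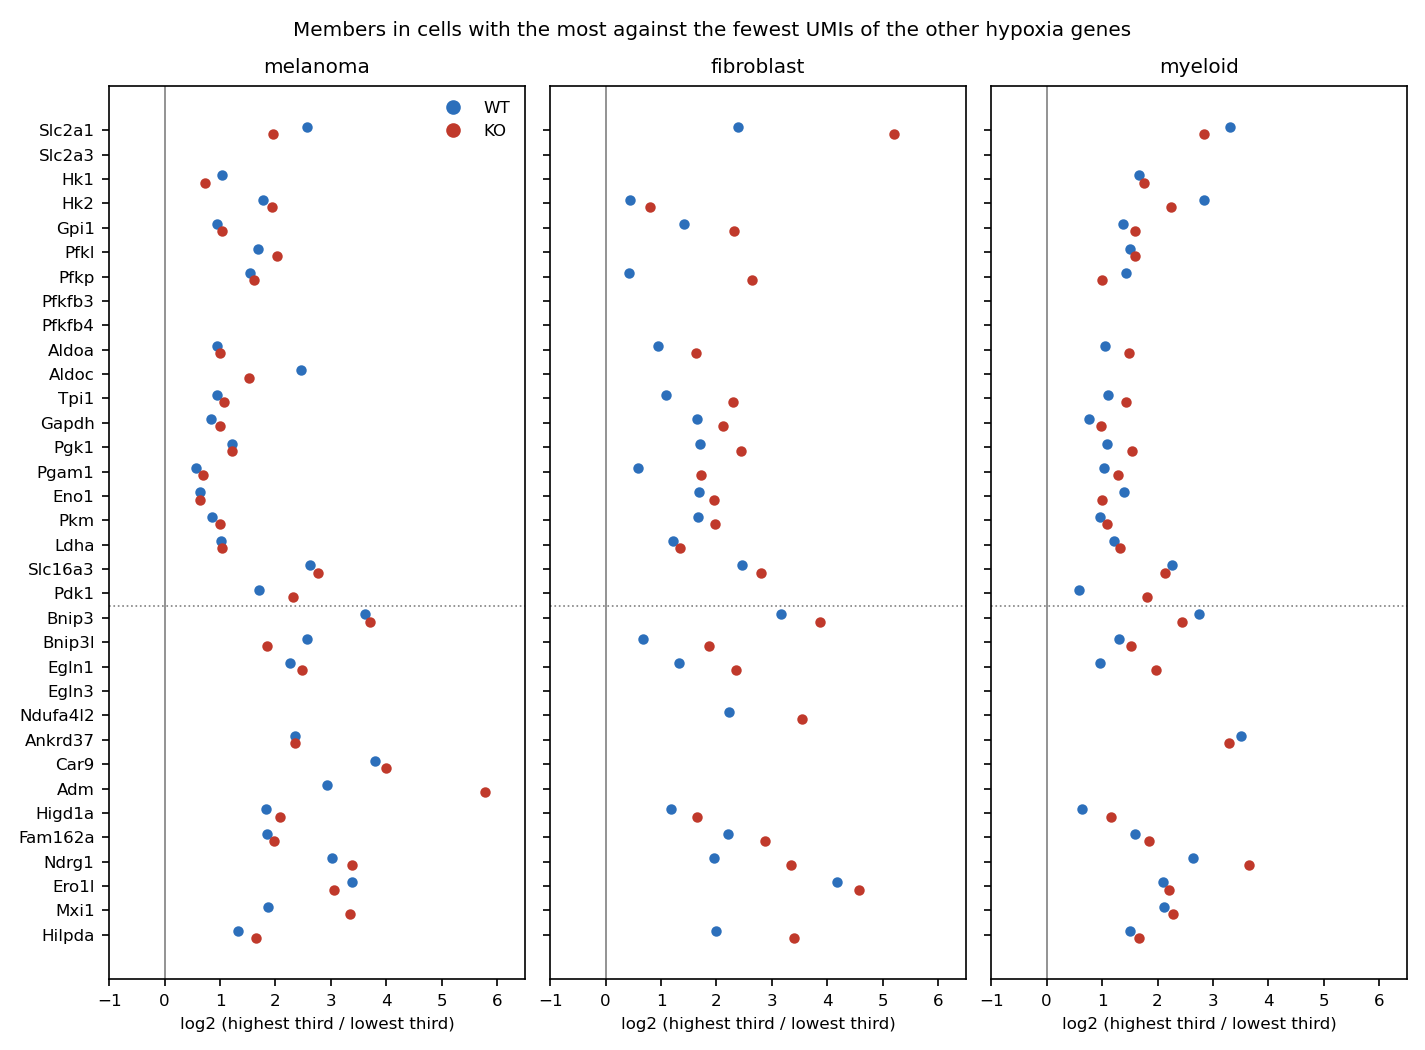
The log2 ratio of each gene (y axis) between the cells with the highest and the lowest level of the other hypoxia genes, in melanoma, fibroblast and myeloid cells of WT (blue) and KO (red), drawn for genes with at least 20 UMIs in each library; a dotted line parts glycolytic from hypoxia genes. All drawn points lie right of 0, with hypoxia genes and Slc2a1 farther out than the abundant enzymes.

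By gene, the abundant enzymes differed less along this axis than the transporters Slc2a1 and Slc16a3. In melanoma cells Pgam1 and Eno1 had log2 ratios between the ends of 0.57 and 0.65 in WT and of 0.69 and 0.64 in KO. Slc2a1 had 2.57 and 1.96, and Slc16a3 2.62 and 2.77. Of 17 glycolytic genes with enough UMIs in both libraries 16 were past 1.5-fold in each, and of 12 hypoxia genes 12, against 4.41% of 7578 genes. The exception was Pgam1.

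Among the hypoxia genes of melanoma cells, Car9 had a log2 ratio between the ends of 3.80 in WT and 3.99 in KO, Bnip3 of 3.62 and 3.71, and Ero1l of 3.37 and 3.05. Adm had 2.93 and 5.78, the latter from 1 and 55 UMIs, and the oxygen sensor Egln1 had 2.27 and 2.48. In fibroblasts Ero1l was at 4.17 and 4.56, Bnip3 at 3.17 and 3.87, and Ndufa4l2 at 2.23 and 3.54. There 11 of 13 glycolytic and 9 of 9 hypoxia genes were past 1.5-fold in both libraries, against 5.6% of 1482 genes, and Hk2 and Pfkp fell short in WT with 0.45 and 0.42. In myeloid cells 16 of 16 and 10 of 10 were, against 4.85% of 3584 genes, with Slc2a1 at 3.30 and 2.83 and Hk2 at 2.84 and 2.25. Because the hypoxia genes were chosen as a set known to respond together, these values describe how they varied and are not independent evidence of a state.

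A separate list held 48 other genes of the same pathways, namely HIF subunits, further glycolytic isoforms, glycogen enzymes and HIF targets. In fibroblasts 13 of 35 with enough UMIs were higher by 1.5-fold and 3 lower (13% and 15.8% of all genes), with a summed log2 ratio of 0.36 (0.28 to 0.43). Beside Hif1a, Pgm2 was at 46.3 and 86.3 CPM and Lox, which cross-links collagen, at 852 and 1356. In myeloid cells 8 of 38 were higher and 3 lower (8.64% and 9.19% of all genes), with the glycogen branching enzyme Gbe1 at 16.8 and 33.2, the histone demethylase Kdm3a at 16.8 and 27.5, and Dlat, a pyruvate dehydrogenase subunit, at 32.4 and 19.0. In melanoma cells 3 of 42 were higher and 0 lower, near the 8.69% and 4.84% of all genes, and the 3 with the largest log2 ratio were Pygl (0.76), Eno2 (0.68) and Gys1 (0.60), a glycogen phosphorylase, an enolase and a glycogen synthase. In endothelial cells 0 of 11 were higher and 2 lower, where 16.1% and 16.4% of all genes were.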

How the data were processed

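Raw UMI counts per gene and cell were used as deposited. Per the submitters' processing notes the authors made these counts with Cell Ranger 3.1.0 on GRCm38, and Seurat 3.2.1 is also listed. The kit is V3 in the labels and V2 in the study's methods. Cell Ranger leaves out reads that map to several genes, which can lower glycolytic genes with many pseudogene copies, and the second Aldoa identifier held 0 UMIs.

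As in the study, cells needed 200 to 5000 genes and a mitochondrial share of 7.5% or less. A cell entered a gate with at least 3 markers of that type and a marker level per 10000 UMIs of at least 40 for melanoma (8 markers), 50 for fibroblasts (9), 15 for endothelial cells (8) and 40 for myeloid cells (8), if it passed only 1 gate. Cells with at least 2 markers of T and NK, B, plasmacytoid or skin cells, or at least 3 of red cells, were left out. These levels were set after the marker counts, and the members and lists were chosen with earlier results of these data known. Doublets called by Scrublet (scanpy 1.11.5; 114 in WT, 50 in KO) were kept in the main values.

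Counts were summed per gate and library, with exact Poisson intervals for levels and exact conditional binomial intervals for ratios. The interval code was tested on simulated data. All 34 members were named, with further pathway genes named as the 3 with the largest absolute log2 ratio per gate among those with at least 100 UMIs. Alternatives are given at the end. Software was edgeR 4.0.16, scipy 1.17.1, pandas 2.3.3, numpy 2.4.6 and Python 3.11.15.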

Additional observations from a re-analysis of the deposited data

How the results depend on the processing

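The 8 list sums (2 lists in 4 cell types) kept their sign under every alternative run. The main interval of the endothelial glycolytic sum held 0. Of 64 recomputed sums 52 stayed within the counting interval, and some of these could not move. Lifting the upper limit on genes changed no sum in the host gates, nor did removing doublets in endothelial cells. When only host cells with Xist but without Y-linked UMIs were used, the log2 KO/WT ratio was 0.41 for glycolytic and 0.87 for hypoxia genes in fibroblasts and 0.42 for glycolytic genes in myeloid cells, Ndufa4l2 in fibroblasts turned to -0.18, and the endothelial hypoxia ratio of 0.38 had an interval that held 0. With free RNA subtracted, glycolytic genes were at 0.87 in fibroblasts and 0.39 in myeloid cells. In melanoma cells the glycolytic ratio was 0.036 with a mitochondrial limit of 15%, 0.068 without mitochondrial and ribosomal protein genes, 0.024 with TMM scaling in edgeR and 0.059 with the marker level of 10, chosen after seeing the data. The hypoxia ratio there was 0.23, 0.19 and 0.30 under the last 3 of these. The cause of these moves was not tested. Of 910 recomputed ratios of single members, 859 stayed within the counting interval, 50 left it and 1, Ndufa4l2, reversed from past 1.5-fold. With Xist cells only, 4 of these took the other sign where the interval over all cells had been clear of 0. They were Ndufa4l2, Eno1 in fibroblasts (-0.24) and in myeloid cells (0.032), and Bnip3l in myeloid cells (-0.083). No paired analysis was possible because 1 library stood on each side. That number, the 2 tumours per library and the 27 KO endothelial cells limit every ratio, and no interval covers the difference between mice.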

Other observations

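Cells outside the 4 gates also held these genes. The kept cells that passed no gate (273 in WT and 358 in KO, which include the weakly marked melanoma cells) had hypoxia genes at 2247 CPM (2112 to 2388) in WT and 4626 (4524 to 4729) in KO, and glycolytic genes at 14581 and 20722. Cells that passed more than 1 gate, 92 and 43, had hypoxia genes at 1286 and 2588. Cells left out for their lymphoid, red cell or skin markers, 75 and 17, had hypoxia genes at 1781 (1631 to 1942) and 3347 (2738 to 4052). These groups are mixed, and no gene was described in them.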
